A study of Mus musculus with 9 samples.

Results

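The livers described here were the 5 livers of mice kept on a standard chow diet, chosen by their diet label out of 9 livers in the series. All mice were of the inbred C57BL/6J strain and were held under a daily light and dark cycle. The mice were assigned to their diet at 8 weeks of age and stayed on it for 3 weeks, and the livers were taken at 11 weeks. The other 4 mice received a high-sucrose diet, and their livers were not used here. Neither the sex of the animals nor the hour of sampling is stated in the labels or methods. Poly-A-selected RNA of a piece of liver was sequenced from each animal, so that the spread between libraries holds the spread between mice and that of sampling and library preparation. Levels are in TPM, the share of a gene among all transcripts after correction for transcript length, scaled to a fixed sum, and values listed one after another run from Chow 1 to Chow 5. No groups were compared and no test was made.

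The liver makes most of the proteins of blood plasma, and hepatocytes, its main cells, also hold the urea cycle, the synthesis of bile acids, lipids and glucose, and the enzymes that modify drugs and steroids. Plasma proteins include carriers such as albumin, apolipoproteins of lipoprotein particles, protease inhibitors, and clotting and complement factors. In mice, hepatocytes also secrete the major urinary proteins (MUPs), small pheromone carriers that pass into urine. Hepatocyte transcripts follow the time of day and feeding, and inflammatory signals such as interleukin-6 raise the acute phase genes. Kupffer cells (the liver macrophages), sinusoidal endothelial cells, stellate cells and bile duct cells make up the rest of the tissue.

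The estimated counts summed to 12769668 to 25913869 per liver, with a median of 17791258. Of 19329 gene symbols, 15957 were above 0 in any chow liver, and 10440 had a mean of at least 1 TPM. The gene just inside this floor was *Clca3a1* at 1.002 TPM and the gene just outside it *Rnf24* at 0.9995 TPM. All 6 hepatocyte markers were abundant in every liver. *Alb*, which encodes albumin, was at 24874, 63396, 41241, 54048 and 45665 TPM. *Apoa1* and *Apoa2*, the main proteins of high-density lipoprotein, were at 10605 to 17987 TPM and 13661 to 18082 TPM. *Ttr*, the thyroxine and retinol-binding protein carrier, was at 3618, 7058, 4941, 6302 and 6007 TPM. *Cps1*, the entry enzyme of the urea cycle, was at 577, 1288, 887, 1386 and 1305 TPM, and *Cyp2e1*, an ethanol-oxidizing cytochrome P450, was at 3135, 3442, 4127, 4473 and 4465 TPM. Each of the 6 was lowest in Chow 1, as were 46.1% of all genes at a mean of at least 1 TPM (36.2% after TMM scaling, which uses trimmed means of ratios between libraries), and without Chow 1 their highest livers were less than 2 times their lowest.

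Chow 1 stood apart from the other 4 livers. Genes of the acute phase list made up 12.6% of its summed TPM and 1.71% to 2.56% in the others. Across genes, the Spearman correlation between pairs of livers was 0.952 to 0.968 for pairs with Chow 1 and 0.967 to 0.976 for the other pairs, as a description of libraries that share an annotation and a base composition. Several results are therefore given with and without Chow 1. No library was a repeat of another, since the counts of every pair differed by a chi-square of at least 21.8 per degree of freedom. The labels number Chow 5 in another series than the other 4 libraries, and what that numbering marks is not stated there.

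The transcriptome was concentrated in few genes. The 20 most abundant genes held 33.99% ± 2.04 (SD, n = 5) of the summed TPM, with a range of 30.8% to 36.2%, and the 100 most abundant held 59.5% ± 1.88. Without Chow 1, the 20 genes then most abundant held 34.9% ± 0.677 (SD). Of the mean share, 50% was held by 52 genes and 90% by 1686 genes. A mean of at least 10 TPM was reached by 4904 genes, of at least 100 TPM by 907 and of at least 1000 TPM by 110. Of the 20 most abundant genes, 14 encode secreted proteins, 5 are encoded by the mitochondrial genome and 1 is a cytosolic lipid carrier.

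*Alb* led the list at 45845 ± 14459.9 TPM (SD, n = 5), and Chow 1 was the lowest liver and Chow 2 the highest. *Mup7* followed at 33866 ± 11579 TPM, being lowest in Chow 2 at 19000.1 TPM and highest in Chow 3 at 45984 TPM. Of the apolipoproteins, *Apoe* (a ligand of lipoprotein receptors) was at 22144, 25733, 24007, 25306 and 27122 TPM and *Apoc1* (an inhibitor of lipoprotein uptake) at 10158 to 15229 TPM, and the livers kept close together for both. *Trf*, the iron carrier transferrin, was at 23029, 15708, 14244, 13211 and 12459.7 TPM, and here Chow 1 was the highest. The readthrough model *Gm20425* holds 60.6% of the 31-base sequences of *Trf*, so the level of *Trf* is uncertain. Alpha-1-antitrypsin inhibits neutrophil elastase, and its genes *Serpina1e* and *Serpina1c* were at 11739 to 18816 TPM and 8274 to 10219 TPM. Other genes hold 54.2% and 85.8% of their 31-base sequences, so the split among the alpha-1-antitrypsin genes is uncertain. *Serpina3k*, another protease inhibitor, was within 9039.5 to 10349.5 TPM. The lipid carrier *Fabp1*, which binds fatty acids inside the hepatocyte, was at 5449, 10936, 9674, 10365 and 11089.6 TPM, low in Chow 1 only. Its highest liver was 2.04 times its lowest in TPM and 1.72 times in CPM (counts scaled to the library total) adjusted by TMM.

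**Figure D1:**
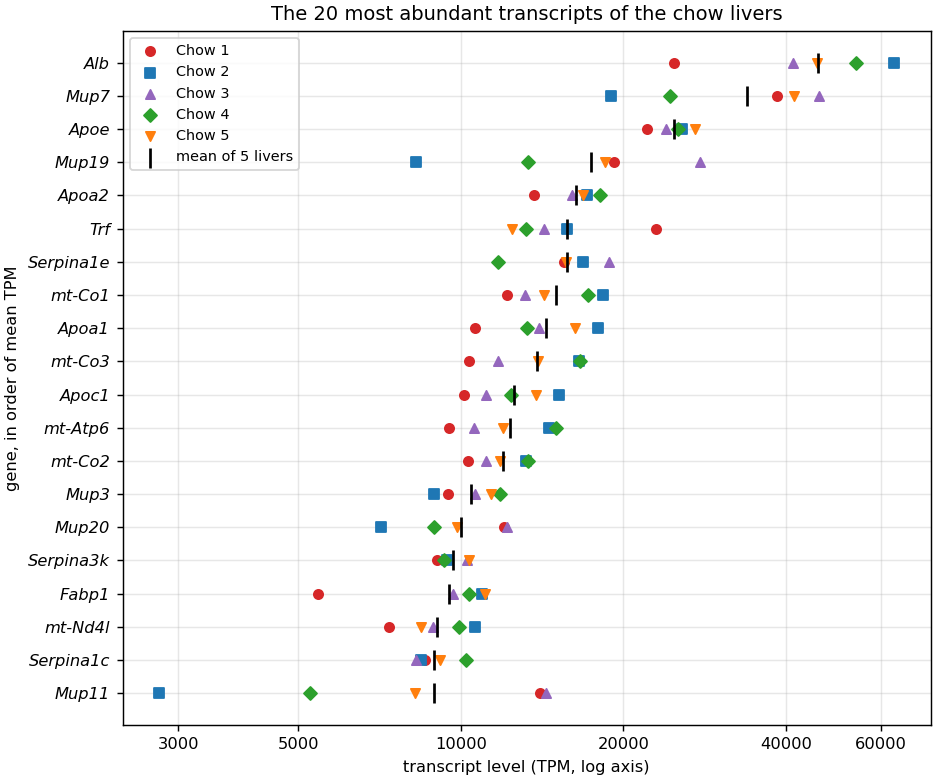
Transcript level in TPM (log axis) of the 20 genes with the highest mean over 5 chow livers, with 1 point for each liver and a bar at the mean. *Alb* was lowest in Chow 1, *Trf* was highest there, and *Mup7*, *Mup19*, *Mup20* and *Mup11* were lowest in Chow 2.

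The promoter of *Alb* is shown because this gene led all others. The stretch is from RefSeq, build GRCm38.p6, chr5:90460632-90460849 on the plus strand, and it runs from 238 to 21 bases before the transcription start. Capitals mark, in order, 2 matches to the D-box (TTATGTAA or TTACGTAA on either strand), which proteins of the DBP family bind, and the letters GTTAAT, a part of the site of the liver factor HNF1.
Alb: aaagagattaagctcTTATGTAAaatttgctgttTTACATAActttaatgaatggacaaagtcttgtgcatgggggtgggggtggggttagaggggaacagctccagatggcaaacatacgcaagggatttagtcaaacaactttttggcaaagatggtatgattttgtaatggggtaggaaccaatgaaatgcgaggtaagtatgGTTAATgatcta
Over 32851 promoters of 300 bases, 250 before and 50 after a start, 1.06% held a D-box and 7.10% held GTTAAT. Among the 100 most abundant genes, 68 had a promoter in the RefSeq table, and GTTAAT occurred in 17 of their 78 promoters (21.8%). The TATA box (TATAAA) occurred in 18 of these 78 (23.1%) against 13.6% of all promoters. A match describes the letters in this window and not binding.

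Listed secreted genes, 142 in the tables, held 41.0% ± 2.79 (SD, n = 5) of the summed TPM, at 42.7, 38.6, 44.5, 37.8 and 41.1% from Chow 1 to Chow 5. Albumin and the plasma carriers held 11.5% ± 1.10, the MUPs 10.7% ± 3.83, the apolipoproteins 8.42% ± 0.857, the protease inhibitors 6.93% ± 0.249, the clotting genes 1.77% ± 0.414 and the complement genes 0.917% ± 0.194. The protease inhibitors had the lowest ratio of highest to lowest liver of these, at 6.59% to 7.24%, and the MUPs the highest ratio, at 5.72% to 15.3%. The clotting genes were at 2.47% in Chow 1 and 1.42% to 1.73% in the others. Their list holds the 3 fibrinogen chains, which are also acute phase genes, and 6 of its 20 genes were highest in Chow 1 and 9 lowest there. Hormones and hepatokines held 0.749% ± 0.0925, led by *Hamp* (hepcidin, which limits iron export from cells) at 3407, 3754, 2757, 1797 and 3047 TPM. *Igf1*, the growth factor that answers growth hormone, was even across livers at 413, 531, 466, 463 and 475 TPM. The serum amyloid A genes were counted in the acute phase list and not among the secreted genes.

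Listed metabolic genes, 320 in the tables, held 12.8% ± 1.88 (SD, n = 5), at 9.87, 14.0, 11.8, 14.3 and 13.7%. Chow 1 was the lowest liver, and without it the range was 11.8% to 14.3%. Conjugation and detoxification held the largest part, 2.95% ± 0.226, with *Mgst1* (a membrane glutathione transferase) at 4277 to 4731 TPM and *Uox* (urate oxidase) at 1285 to 3472 TPM. The cytochromes P450 of families 1 to 4 held 1.46% ± 0.199, and *Cyp2e1* led them. Fatty acid oxidation and ketogenesis held 1.64% ± 0.333, led by *Fabp1*. The list was at 1.05% in Chow 1 and 1.72% to 1.83% in the other livers, and *Fabp1* alone held a mean of 1.02%. Nuclear-encoded subunits of mitochondrial respiration held 1.54% ± 0.159, amino acid breakdown 1.19% ± 0.211, the methionine and choline genes 1.06% ± 0.190, glycolysis and gluconeogenesis 1.01% ± 0.131, the urea cycle 0.7099% ± 0.227, fatty acid synthesis 0.602% ± 0.279, bile acid synthesis and transport 0.467% ± 0.0852 and cholesterol synthesis 0.233% ± 0.0278. The 13 genes of the mitochondrial genome held 10.4% ± 1.57, led by *mt-Co1* and *mt-Co3*, subunits of cytochrome c oxidase, at 12190 to 18373 TPM and 10338 to 16611 TPM. Of the 31-base sequences of *mt-Co3*, 99.9% also occur in nuclear gene models, and the part of poly-A selection and of such copies in that share was not tested.

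**Figure D2:**
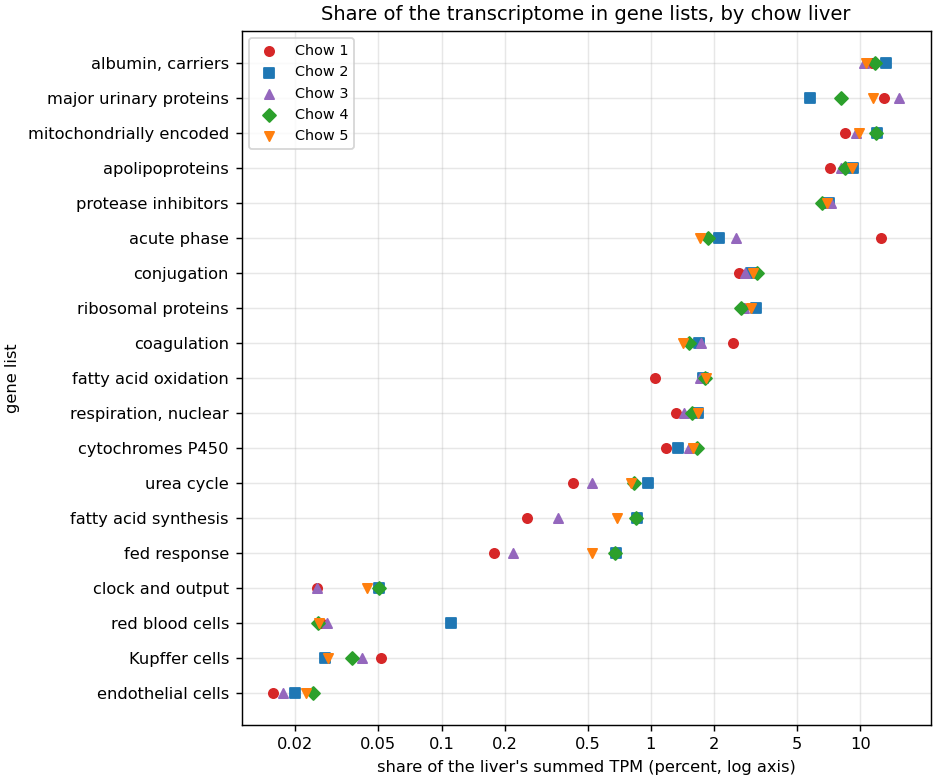
Share of each liver's summed TPM (percent, log axis) held by 19 gene lists, with 1 point for each chow liver. The acute phase list was at 12.6% in Chow 1 and 1.71% to 2.56% in the others, and the red blood cell list reached its highest share in Chow 2, within 0.0257% to 0.112%.

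Markers of cells other than hepatocytes, 122 in the tables, held 0.304% ± 0.0762 (SD, n = 5) of the summed TPM. More than any other gene, *Car3* made up that share, a carbonic anhydrase listed for adipocytes and at 492, 1765, 1602, 2003 and 1701 TPM. Without *Car3* the share was 0.142% ± 0.0315. *Adipoq*, *Lep* and *Retn*, which define adipocytes, were at 0 in every liver. The Kupffer cell markers held 0.0514, 0.0277, 0.0418, 0.0372 and 0.0287%, led by *Clec4f*, the Kupffer cell lectin, at 79.1, 42.3, 63.4, 70.1 and 55.3 TPM. They were highest in Chow 1, where 13 of the 14 markers had their highest level, against 12.4% of all genes (18.5% after TMM scaling). *Marco*, a scavenger receptor of macrophages, was at 9.19, 2.81, 9.16, 2.41 and 0.976 TPM, high in Chow 1 and Chow 3. The endothelial markers held 0.0156% to 0.0243%, led by *Clec4g*, and were lowest in Chow 1, as were 12 of their 15 genes, against 46.1% of all genes. The stellate cell markers held 0.0209% to 0.0306% and the bile duct markers 0.00381% to 0.00756%, the latter led by *Spp1* (osteopontin) at 54.4, 20.9, 39.9, 29.1 and 28.5 TPM. In these bulk samples, fewer cells of a type and less RNA per cell cannot be told apart.

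Blood, pancreas and muscle were also checked. The neutrophil markers held 0.000502% to 0.00177% and were highest in Chow 1, where *S100a9*, a calcium-binding protein of neutrophils, was at 7.09 TPM against 0 to 2.32 TPM in the others. Of these 11 markers, *Camp* was at 0 in every liver. T cell and natural killer cell markers held 0.000204% to 0.00105% and B cell markers 0.000137% to 0.000733%. Of the 12 pancreas markers in the tables, 7 were at 0 in every liver, among them *Cpa1*, *Prss2* and *Pnlip*, while *Cela1*, an elastase, was at 40.8, 60.8, 54.5, 55.5 and 83.8 TPM. Of 9 skeletal muscle markers, 5 were at 0. The red blood cell list was high in Chow 2, at 0.0267, 0.112, 0.0282, 0.0257 and 0.0261%. *Hba-a2*, an alpha globin, was at 74.4, 472, 69.5, 60.8 and 74.3 TPM and *Hbb-bs*, a beta globin, at 52.8, 302, 52.4, 38.4 and 42.6 TPM. *Alas2*, the heme synthesis enzyme of red cell precursors, was at 87.4, 113, 90.5, 111 and 91.1 TPM and did not follow the globins. *Hba-a2* shares 92.6% of its 31-base sequences with *Hba-a1*, and *Hbb-bs* 54.4% with *Hbb-bt*, so the split within each pair is uncertain.

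Genes of the Y chromosome were detected in all 5 livers. *Ddx3y* and *Eif2s3y*, a helicase and a translation factor gene, were at 7.601 to 16.04 TPM and 17.0 to 31.02 TPM, and *Kdm5d* and *Uty*, both histone demethylase genes, were at 2.52 to 3.86 TPM and 1.45 to 3.20 TPM. Of 20 listed genes that are higher in female mouse liver, 2, *Cyp2b13* and *Sult3a1*, were at 0 in every liver. A mean of at least 1 TPM was reached by 9 of the 20. The list of male-biased genes, which *Mup7* leads, held 6.09% to 10.2% and the list of female-biased genes 0.0127% to 0.0251%. *Xist* was not analysed here.

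The spread between mice was described by the coefficient of variation (CV, the SD over the mean of TPM in 5 livers) and by the range, a gene being past 2-fold when its highest liver was at least 2 times its lowest. The median CV was 18.6% over the 10440 genes with a mean of at least 1 TPM, and counting alone, taken as 1 over the square root of the mean count, gave a median of 5.58%. Without Chow 1 the median CV was 15.5%. The CV was under 10% for 1530 genes and over 100% for 73. Past 2-fold were 2679 of 10440 genes (25.7%), and without Chow 1 they were 1681 of 10449 (16.1%). In TMM-scaled CPM, which takes no account of transcript length, 1603 genes (15.4%) were past 2-fold, of which 1390 were also past it in TPM. The share past 2-fold was 37.3% at 1 to 10 TPM, 11.9% at 10 to 100, 13.3% at 100 to 1000 and 28.2% from 1000 TPM. The median CV was 15.1% at 10 to 100 TPM and 17.9% from 1000 TPM, but without Chow 1 these were 12.0% and 12.8%. Of the genes past 2-fold, 43.1% were lowest in Chow 1 and 16.3% were highest there. After TMM scaling these were 32.3% and 23.8%.

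**Figure D3:**
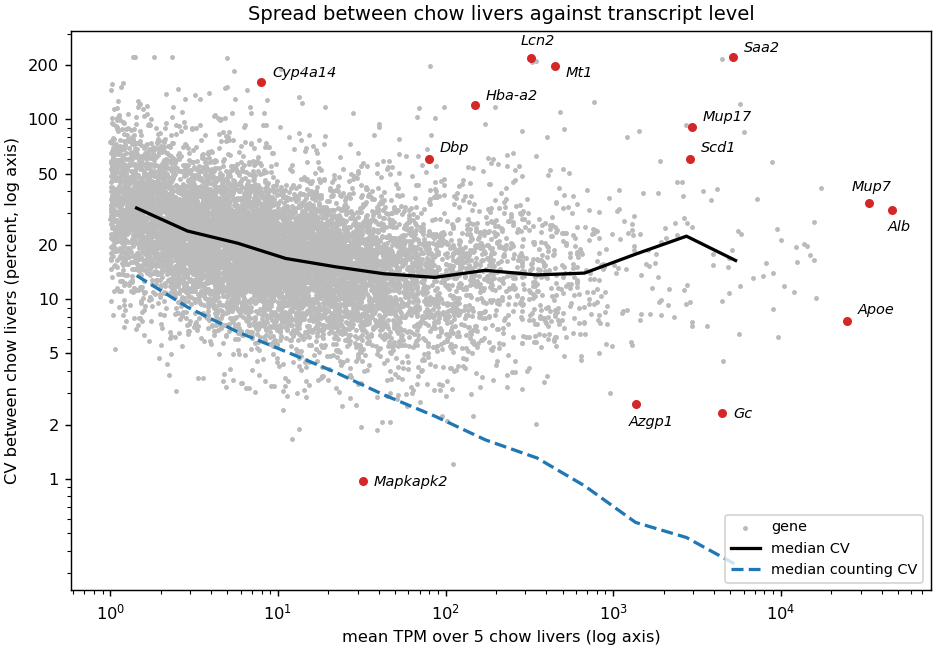
CV between the 5 chow livers (percent) against mean TPM for 10440 genes, both on log axes, with the median CV (solid) and the median CV from counting alone (dashed) over bins of level. *Saa2* lay at a CV of 221%, *Alb* at 31.5%, *Gc* at 2.34% and *Mapkapk2* at 0.976%, under the counting line.

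Gene lists differed in how many members were past 2-fold, read against 25.7% of all genes. The acute phase list had 22 of 24, fatty acid synthesis 16 of 19, the MUPs 17 of 21, the fed response 11 of 15, the clock and its output 14 of 20 and the Kupffer cell markers 9 of 14. At the other end were the apolipoproteins with 0 of 13, the cytosolic ribosomal proteins with 1 of 78 (*Rpl5*) and nuclear-encoded respiration with 1 of 44 (*Cycs*, cytochrome c). Cholesterol synthesis had 2 of 23 (*Ggps1* and *Sc5d*). Complement had 2 of 21 in TPM (*C3* and *C4b*) but 4 of 21 in TMM-scaled CPM, where all genes were at 15.4%. Lists were not matched for level. The fed response and fatty acid synthesis lists overlap, and the MUPs share sequences, so these counts are not of separate measurements. Among all genes, 37.3% were past 2-fold at 1 to 10 TPM but 11.9% at 10 to 100 and 13.3% at 100 to 1000. A low share in a list of well-expressed genes, such as cholesterol synthesis or complement, may therefore reflect level. Without Chow 1, read against 16.1% of all genes, 5 acute phase genes, 12 fatty acid synthesis genes, 17 MUPs, 9 fed response genes, 13 clock genes and 2 Kupffer cell markers were past 2-fold. In TMM-scaled CPM, read against 15.4% of all genes, the counts of these lists over 5 livers were 22, 15, 16, 11, 13 and 13, and conjugation and detoxification went from 29 of 58 genes in TPM to 16 in CPM.

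**Figure D4:**
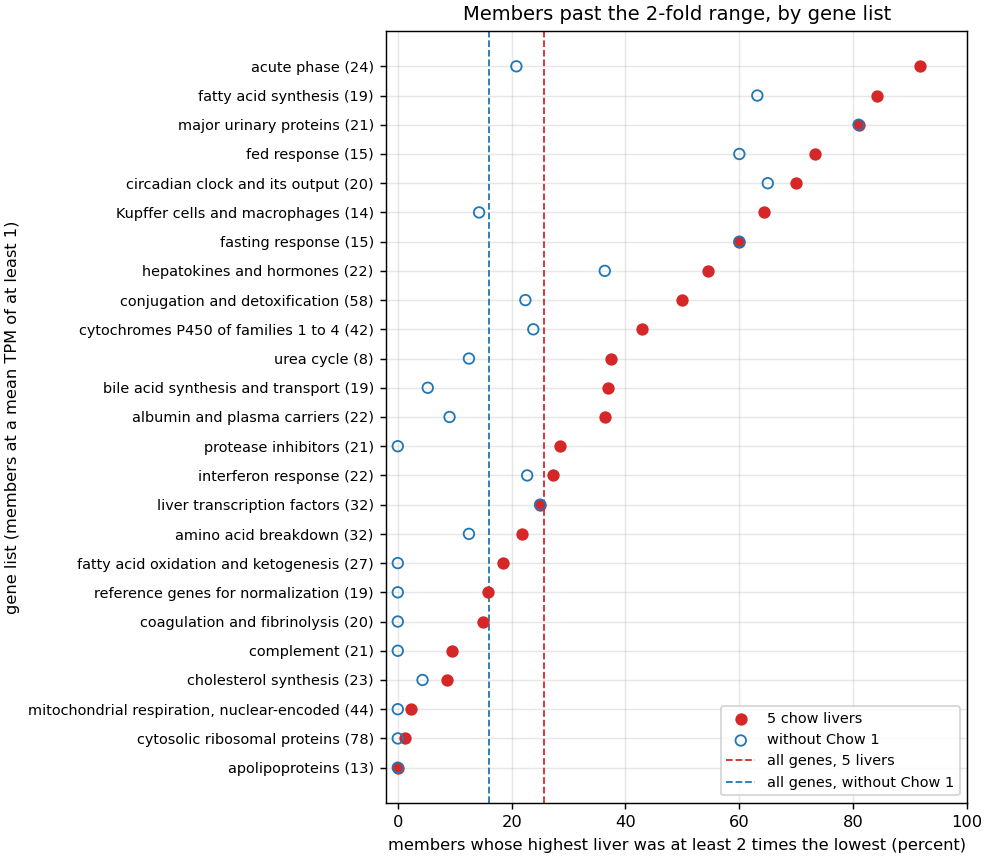
Percent of the members of 25 gene lists whose highest liver was at least 2 times the lowest, over 5 chow livers (filled) and without Chow 1 (open), with the share over all genes as dashed lines (25.7% and 16.1%) and the number of members in parentheses. The acute phase list went from 22 of 24 to 5 of 24 without Chow 1, while the MUPs stayed at 17 of 21.

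The acute phase genes set Chow 1 apart. For 21 of the 24, a single liver lay far above the other 4 (a gap over 0.71 of the range, Dixon's value), against 4.21% of all genes, with 2.10% of all genes having a liver far below. Of the 24 genes, 23 were highest in Chow 1 against 12.4% of all genes, and *Il6ra*, the interleukin-6 receptor, was the exception at 11.0, 11.8, 11.3, 12.8 and 13.5 TPM. Serum amyloid A proteins are carried on high-density lipoprotein in inflammation, and *Saa2* was at 25693, 45.6, 110.3, 30.3 and 13.2 TPM and *Saa1* at 21855, 101, 311, 97.0 and 37.0 TPM. In Chow 1 *Saa2* was above *Alb*, and in no other liver did either *Saa* gene pass 311 TPM. *Lcn2*, which binds bacterial iron carriers, was at 1607, 4.02, 9.14, 4.29 and 2.99 TPM, 176 times higher in Chow 1 than in the highest other liver. *Orm2*, an alpha-1-acid glycoprotein, was at 1668, 17.4, 20.3, 18.3 and 14.0 TPM, and the other 4 livers lay close together. The plasma scavengers *Hp* (haptoglobin, which binds free hemoglobin) and *Hpx* (hemopexin, which binds heme) were at 18055, 2415, 3875, 2113 and 2047 TPM and 15204, 4235, 4647, 3263 and 2854 TPM. Of the 31-base sequences of *Saa1*, 46.0% also occur in *Saa2*, so the split between them is uncertain.

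Other members stood above the other livers in Chow 1 by less. *Apcs*, the serum amyloid P component, was at 614 TPM in Chow 1 and 76.6 to 115 TPM in the others, and *Orm1* at 7307 and 1489.6 to 1725 TPM. The fibrinogen chains *Fga*, *Fgb* and *Fgg* were at 7045, 3097 and 6215 TPM in Chow 1 and at 2853 to 4093 TPM, 1289 to 1802 TPM and 2817 to 3749.95 TPM in the others. *Saa3*, *Saa4*, *Orm3*, *Itih3*, *Itih4*, *Serpina3n*, *Serpina3m*, *Cp*, *Steap4*, *Il1r1* and *Socs3* were also past 2-fold and highest in Chow 1, with 1.60 to 27.5 times the level of the highest other liver. *Crp*, a main acute phase protein of humans, was at 429.9, 254, 272, 283 and 250.2 TPM and not past 2-fold. Chow 3 was the second highest liver for *Saa1*, *Saa2*, *Lcn2* and *Hp*. Outside the list, *Lrg1*, a leucine-rich glycoprotein of plasma, was at 2480.3 TPM in Chow 1 and 224 to 574 TPM in the others. The metal-binding metallothioneins *Mt1* and *Mt2*, also outside it, were at 2058, 50.02, 77.9, 20.4 and 50.3 TPM and 1564, 12.6, 41.6, 3.47 and 23.2 TPM. *Prtn3*, a serine protease of neutrophil granules, was at 45.8 TPM in Chow 1 and 0.337 to 2.99 TPM in the others, and the Kupffer cell markers held 0.0514% there and 0.0277% to 0.0418% in the others. The part of other cell types in these levels was not tested. *Mt2* shares 57.6% of its 31-base sequences with the gene model *Gm45774*.

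The promoter of *Orm2* is shown because it held both the C/EBP letters and a TATA box and its gene had one of the widest ranges. It is from RefSeq, build GRCm38.p6, chr4:63362309-63362428 on the plus strand, from 140 to 21 bases before the start. Capitals mark TTGCGCAA, bound by C/EBP factors, and TATAAA.
Orm2: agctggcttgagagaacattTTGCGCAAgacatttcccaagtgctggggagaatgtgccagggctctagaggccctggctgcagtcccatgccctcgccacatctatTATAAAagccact
TTGCGCAA occurred in 0.183% of all promoters, and among the 23 promoters of 21 acute phase genes only in that of *Orm2*. The STAT letters TTCNNNGAA were in 6 of the 23 (26.1%), those of *Apcs*, *Fga*, *Fgb*, *Steap4*, *Socs3* and *Itih4*, against 8.30% of all promoters.

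The spread of MUP transcripts between livers did not rest on Chow 1, as 17 of 21 genes were past 2-fold without it, against 16.1% of all genes. The summed share of the MUPs was 12.9, 5.72, 15.3, 8.08 and 11.5%, lowest in Chow 2. At a mean of at least 1 TPM, 20 of the 21 genes were lowest there, against 17.1% of all genes. Chow 1 and Chow 3 were the 2 highest livers for 12 of the 21, against 7.79% of all genes. After TMM scaling they were so for 14, against 11.6%. *Mup17* was at 5289.8, 340.02, 6322, 971 and 1817 TPM and *Mup15* at 2617, 118.9, 2807, 431 and 1184 TPM, both high in Chow 1 and Chow 3 and low in Chow 2 and Chow 4. *Mup11* was at 14013, 2768, 14414, 5251 and 8228 TPM and *Mup19* at 19202, 8266, 27738, 13315 and 18509 TPM, with Chow 2 lowest and Chow 4 next. The 4 members that were not past 2-fold were *Mup3*, *Mup5*, *Mup20* and *Mup21*. Other genes hold 30.1%, 37.0%, 64.5% and 33.8% of their 31-base sequences, less than for any other MUP but *Mup4* and *Mup6*. *Mup3* was at 9457, 8909, 10643, 11831 and 11399.9 TPM and *Mup20*, the protein known as darcin, at 12005, 7103, 12165, 8927 and 9827 TPM. All MUP genes lie on chromosome 4 between 59956804 and 62150863 (GRCm38). Their transcripts are close copies, and other genes hold 90.02% of the 31-base sequences of *Mup7*, 100% of those of *Mup19* and 30.1% of those of *Mup3*. The level of a single member is therefore uncertain and the summed share is the firmer value. Members with shared sequences are not separate measurements, so the counts of MUP genes are uncertain too.

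For many clock genes, Chow 1 and Chow 3 lay on one side and Chow 2, Chow 4 and Chow 5 on the other. The clock is a feedback loop in which BMAL1 (gene *Arntl*) and CLOCK drive the *Per*, *Cry*, *Nr1d* and *Dbp* genes through E-boxes, and its transcripts rise and fall over the day. *Arntl* was at 1.76, 0.795, 4.38, 0.653 and 0.821 TPM, and *Nfil3*, a repressor at D-boxes, at 14.2, 6.59, 10.5, 4.34 and 3.48 TPM, both highest in Chow 1 and Chow 3. The activators of D-boxes went the other way, with *Dbp* at 31.9, 111, 24.0, 124 and 109 TPM and *Tef* at 26.4, 58.7, 32.8, 77.3 and 66.4 TPM, both lowest in Chow 1 and Chow 3. *Ciart*, a repressor of the clock, was at 2.76, 12.2, 0.931, 10.4 and 9.95 TPM, and *Per3* at 1.02, 4.77, 1.56, 7.19 and 5.74 TPM, again lowest in these livers. The same held for *Wee1* (a cell cycle kinase) at 0.573, 1.74, 0.476, 3.63 and 3.33 TPM, *Usp2* (a ubiquitin protease) at 7.75, 17.3, 4.17, 22.8 and 32.1 TPM and *Per2* at 1.77, 3.60, 2.05, 5.54 and 5.54 TPM. Of the 20 clock genes at a mean of at least 1 TPM, 12 had Chow 1 and Chow 3 as their 2 lowest livers, against 28.0% of all genes, and 2 had them as their 2 highest, against 7.79%. After TMM scaling the clock counts were again 12 and 2, against 21.7% and 11.6% of all genes.

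The remaining clock genes did not all share that order. *Nr1d2* was at 11.7, 22.5, 14.7, 27.4 and 20.7 TPM, *Per1* at 4.75, 10.6, 4.88, 6.997 and 6.997 TPM and *Cry2* at 10.01, 14.1, 10.3, 17.4 and 14.2 TPM, each lowest in Chow 1 and Chow 3. *Nr1d1*, the repressor REV-ERB alpha, was within 36.5 to 56.5 TPM, *Clock* within 3.67 to 6.25 TPM, *Hlf* within 10.1 to 19.5 TPM and *Rora* within 5.14 to 9.25 TPM, and none of the 4 was past 2-fold. *Cry1* was lowest in Chow 1 and Chow 2, at 0.888, 1.16, 2.71, 2.10 and 2.16 TPM. *Bhlhe40*, a repressor that also answers stress, was highest in Chow 2 at 43.1, 99.4, 39.4, 44.0 and 36.7 TPM, and its relative *Bhlhe41* was within 0.276 to 3.51 TPM. *Npas2*, a partner of BMAL1, was below the floor, at 0.163, 0.0676, 0.216, 0.0473 and 0.0912 TPM. The hour of sampling is not stated, so its part was not tested.

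The promoters of *Ciart* and *Per3* are shown because they held the most E-boxes and D-boxes of the clock list. Both are from RefSeq, build GRCm38.p6, minus strand. The *Ciart* stretch is chr3:95882259-95882358, from 130 to 31 bases before the start, with its 3 E-boxes (CACGTG) in capitals. The *Per3* stretch is chr4:151044806-151044885, from 220 to 141 bases before the start, with its 2 D-boxes in capitals.
Ciart: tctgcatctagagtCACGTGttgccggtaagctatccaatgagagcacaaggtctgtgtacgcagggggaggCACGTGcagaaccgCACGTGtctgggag
Per3: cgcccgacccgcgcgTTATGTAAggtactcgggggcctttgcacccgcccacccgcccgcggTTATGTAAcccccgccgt
CACGTG occurred in 6 of 22 promoters of 17 clock genes (27.3%), against 7.15% of all promoters and 10.1% of promoters of genes at a mean of at least 1 TPM. Besides *Ciart* these were promoters of *Bhlhe41*, *Cry1*, *Per1* and *Tef*. TAGGTCA, the core of the ROR element, was in those of *Arntl* and *Nfil3* (9.09%, against 2.61% of all).

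Genes that answer feeding were also low in Chow 1 and Chow 3. The fed response list held 0.179, 0.678, 0.221, 0.672 and 0.521% and fatty acid synthesis 0.257, 0.862, 0.359, 0.845 and 0.685%, both lowest in Chow 1 and Chow 3. The fasting response list held 0.373, 0.518, 0.448, 0.391 and 0.379% and was not the reverse of the fed list. It was lowest in Chow 1 and highest in Chow 2, with 9 of 15 genes past 2-fold against 25.7% of all genes. *Scd1*, the desaturase that makes oleic acid, was at 926, 4652, 1244, 4401 and 3126 TPM, with no value between 1244 and 3126 TPM. The fed response and fatty acid synthesis lists both hold *Scd1*, which in every liver had the highest level of their genes named here. The shares of these lists are therefore not separate results, and neither was taken without *Scd1*. *Thrsp*, a lipogenic cofactor, was at 114, 471, 106, 523 and 515 TPM, and *Acss2*, which makes acetyl-CoA from acetate, at 60.9, 221, 64.0, 289 and 267 TPM. *Pklr*, the liver pyruvate kinase, was at 79.8, 174, 119.8, 349.8 and 299.9 TPM, and *Fasn*, the fatty acid synthase, at 133, 279.9, 116, 241 and 212 TPM. *Angptl8*, an insulin-driven inhibitor of lipoprotein lipase, was different, being highest in Chow 2 at 48.8, 99.8, 24.3, 13.2 and 14.1 TPM. *Pnpla3*, a triglyceride lipase, was at 0.121, 6.18, 0.695, 8.68 and 7.92 TPM, with 2 counts in Chow 1. Of the 19 fatty acid synthesis genes, 14 were lowest in Chow 1 and 4 in Chow 3, against 46.1% and 14.9% of all genes. These were the 2 lowest livers for 17 of the 19, against 28.0% of all genes. The same held for 36 of 44 nuclear-encoded respiration genes, 25 of 32 of amino acid breakdown and 13 of 18 of glycolysis and gluconeogenesis. After TMM scaling these counts were 27, 24 and 11, against 21.7% of all genes. Fatty acid oxidation (9 of 27) and the cytochromes P450 (13 of 42) were nearer the 28.0%.

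The urea cycle held 0.426, 0.971, 0.523, 0.826 and 0.804% and was lower in Chow 1 and Chow 3 than in the other livers. For 7 of its 8 genes, Chow 1 and Chow 3 were the 2 lowest, against 28.0% of all genes. *Ass1*, its argininosuccinate synthase, was at 1825, 5101, 2215, 4113 and 3858 TPM, and *Asl*, the lyase that follows it, at 328, 729.9, 382, 614 and 653 TPM. *Arg1*, which releases urea, was at 869.6, 1452, 892, 1081 and 1182 TPM and not past 2-fold. *Cps1* was past 2-fold in TPM (2.40 times) but not in TMM-scaled CPM (1.96 times). *Cyp7a1*, the rate-limiting enzyme of bile acid synthesis, was at 10.7, 27.7, 23.7, 39.0 and 46.6 TPM, lowest in Chow 1, as were 17 of the 19 genes of bile acid synthesis and transport, against 46.1% of all genes. *G6pc*, which releases glucose from the liver, was highest in Chow 2 at 110.4, 488, 224, 157 and 188 TPM, while *Pck1*, the entry enzyme of gluconeogenesis, was within 1321 to 1938 TPM.

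**Figure D5:**
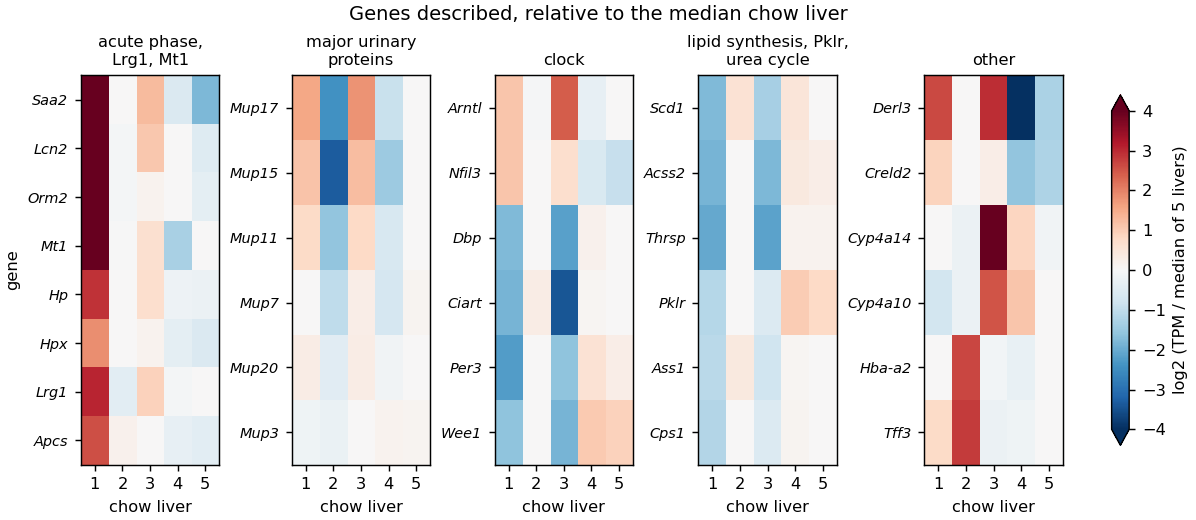
Log2 of TPM over the median of the 5 chow livers for 32 genes in 5 blocks, with livers in columns. Chow 1 was high for the acute phase genes, *Lrg1* and *Mt1*, Chow 2 was low for most MUPs, and Chow 1 and Chow 3 shared low *Dbp*, *Ciart*, *Per3* and *Scd1*.

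Further genes differed between livers, and most of those described next were highest in a liver other than Chow 1. *Cyp4a14* and *Cyp4a10*, hydroxylases of fatty acids under control of PPAR alpha, were highest in Chow 3, at 1.96, 1.68, 30.8, 3.55 and 1.78 TPM and 19.3, 27.4, 187, 70.5 and 32.5 TPM. *Acot1*, a thioesterase of the same program, was at 4.09, 13.3, 22.0, 16.2 and 13.9 TPM, also highest in Chow 3. *Hamp2*, a hepcidin paralog, was at 13.4, 400.2, 35.4, 261 and 148 TPM, lowest in Chow 1 and Chow 3. The endoplasmic reticulum genes *Creld2* and *Sdf2l1* were at 102, 55.0, 65.4, 18.6 and 23.4 TPM and 83.2, 38.1, 62.8, 19.7 and 24.9 TPM, highest in Chow 1 and Chow 3 and lowest in Chow 4, whereas *Hspa5*, the main chaperone there, was within 323 to 524 TPM. *Derl3*, a gene of protein removal from that compartment chosen after its values were seen, was at 38.7, 6.18, 48.0, 0.329 and 2.56 TPM. *Tff3*, a secreted trefoil peptide also chosen so, was highest in Chow 2 at 52.2, 212, 25.98, 27.1 and 30.6 TPM.

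The 20 genes of highest CV mixed low-count gene models with acute phase genes. Of the 20, 12 were highest in Chow 1, and 8 had a mean count under 5. *Gm21830*, *Gm37419*, *Gm10271*, *Gm10974*, *Gm11037*, *Hmga1b*, *Gm10139* and *Tmsb15b2* were those 8, and no ratio is given for them. *Stx3*, a membrane fusion protein, was at 4.56, 0.216, 0.620, 0.257 and 0.292 TPM, yet its counts ran from 6 to 20, and its highest liver was 21.1 times its lowest in TPM and 2.07 times in TMM-scaled CPM. *Slc13a5*, the citrate carrier of hepatocytes, was at 4.27, 0.262, 0.621, 0.625 and 0 TPM, and *Pagr1a* at 16.9 and 7.96 TPM in Chow 1 and Chow 3 with fewer than 1 count in the others. Of the 31-base sequences of *Pagr1a*, 93.2% also occur in *Gm42742*, so its level is uncertain. The rest were *Saa2*, *Lcn2*, *Saa1*, *Orm2*, *Mt2*, *Mt1*, *Saa3*, *Prtn3* and *Cyp4a14*, described above. At a mean of at least 100 TPM, the 10 highest were *Saa2*, *Lcn2*, *Saa1*, *Orm2*, *Mt2*, *Mt1*, *Lrg1*, *Hp*, *Hba-a2* and *Apcs*. Of the 20 of highest CV, 9 were again among the 20 highest without Chow 1.

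Most of the 20 least variable genes had a spread near or under that of counting, while *Gc*, *Azgp1*, *F12* and *Ganab* lay above it. *Mapkapk2*, a kinase downstream of p38, was at 32.6, 32.3, 32.6, 32.1 and 31.9 TPM, a CV of 0.976% against 2.77% from counting. *Nit2*, an omega-amidase, was at 111, 110.1, 109, 109.5 and 112 TPM, a CV of 1.21% against 2.44%, and *Mov10*, an RNA helicase, had 1.67% against 4.02%. A CV under the counting value was found for 281 of the 10440 genes, or for 838 with the counts halved. *Trmt112*, *Mfsd5*, *Nfs1*, *Rpl35*, *Smlr1*, *Ppdpf*, *Psmc3*, *Timm13*, *B4gat1*, *Med28*, *Rab11b*, *Gsk3a*, *Ganab* and *Eif3b* were the others of the 20 that are not plasma proteins. Levels of 3 plasma proteins were even at counts high enough to show it. *Gc*, the vitamin D carrier, was at 4469, 4594, 4564, 4505 and 4324 TPM with a CV of 2.34% against 0.304% from counting. *Azgp1*, a zinc-binding glycoprotein, was at 1304, 1389, 1392, 1360.4 and 1367 TPM with a CV of 2.61%, and *F12*, clotting factor XII, at 339.96, 353, 358, 347 and 346 TPM with 2.01%. In TMM-scaled CPM their highest livers were 1.13, 1.20 and 1.21 times their lowest, and none of the 20 was among the 20 least variable on that scale, so the order at the low end depends on the scale.

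Genes often used to normalize liver data were less spread than the middle of all genes. Against 18.6% over all genes (15.5% without Chow 1), the 19 listed genes had a median CV of 12.2%, or 9.70% without Chow 1. This comparison was not matched for level. All genes at 100 to 1000 TPM had a median CV of 13.9%, or 10.2% without Chow 1, and the part of level was not tested. *Gapdh* was at 1462, 1698, 1567, 1807 and 1729.9 TPM, and *Ppia* (cyclophilin A) at 737, 954, 778, 846 and 897 TPM, both lowest in Chow 1. Past 2-fold in TPM were *Tbp* at 3.78, 6.46, 6.66, 8.02 and 4.40 TPM, *Tfrc* at 1.74, 4.00, 2.10, 4.07 and 2.19 TPM and *Ipo8* at 7.82, 10.4, 13.3, 16.7 and 9.42 TPM, and in TMM-scaled CPM none of the 19 was, against 15.4% of all genes. Among liver transcription factors, 8 of 32 were past 2-fold, a share near that of all genes. *Hnf4a* was at 148 to 207.98 TPM and *Cebpa* at 133 to 192 TPM, while *Bcl6*, a repressor of lipid genes, was at 19.1, 4.56, 4.44, 9.75 and 8.16 TPM. The TATA box was in 7.04% of promoters of the fifth of genes with the lowest CV and in 8.62% of those of the fifth with the highest, both taken at a mean count of at least 100.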

How the data were processed

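RNA of 5 chow-fed mouse livers was sequenced as poly-A-selected libraries with read pairs of 51 bases. The authors quantified the reads with kallisto, and the deposited estimated counts per gene symbol are not scaled. The deposited TPM values were made by the authors from the same quantification and are scaled for transcript length and depth. The submitters' processing notes name the build GRCm38, and the kallisto version and annotation release are not given in the sources used here. Estimated counts summed to 12769668 to 25913869 per liver, and TPM to 923061 to 937448 over the 19329 symbols listed, which was the denominator of each share. In the counts, 34.4% of values above 0 were whole within 1e-06, and 99.1% of these were even, so the reads behind a count may be fewer than its value and the counting spread larger than given. No column of another series was present (0 columns).

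Livers were grouped by their diet label. Means, SDs, CVs, ranges and shares were computed from TPM with Python 3.11.15, pandas 2.3.3 and numpy 2.4.6, and drawn with matplotlib 3.10.9. CVs and ranges were taken at a mean of at least 1 TPM. Counting error covers read sampling only. TMM factors came from edgeR 4.0.16 in R 4.3.3, with no count model fitted, on the estimated counts rounded to whole numbers. CPM was computed in Python from the unrounded counts and these factors. TMM shifted livers by -0.07 to 0.09 on the log2 scale, and rescaling without the acute phase list shifted Chow 1 by 0.14. A ratio against a liver under 3 counts was not given. Sequences shared between genes were counted as 31-base words of the GRCm38 transcripts, and promoters were from RefSeq, searched on both strands. The scripts were tested on simulated data.

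Genes and lists were chosen with earlier results of these data known. Named were the 20 most abundant genes, the 20 of highest and of lowest CV (10 each at a mean of at least 100 TPM), per list up to 4 members of highest mean and 3 of highest CV, and all hepatocyte, sex chromosome, clock and acute phase genes, a few of which are not reported here. The alternatives were other filters, pseudocounts, scalings and left-out livers.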

Additional observations from a re-analysis of the deposited data

Results flagged for a closer look

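A liver was taken as far from the other 4 when its gap to the nearest of them, divided by the range of all 5, was above 0.71, Dixon's 95% value for 5 samples. Chance flags about 1 in 20 groups, and over the 10440 genes 4.21% had a liver far above and 2.10% a liver far below. Among the genes whose values are given here, chosen by level and spread, 34 had such a liver, which was Chow 1 for 29 of them. The gap over the range is given in parentheses after each name.

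Chow 1 was far above the other livers for *Saa2* (0.996), *Orm2* (0.996), *Lcn2* (0.996), *Saa1* (0.987), *Saa3* (0.980), *Mt2* (0.976), *Mt1* (0.972), *Orm1* (0.959), *Prtn3* (0.942), *Apcs* (0.928), *Serpina3n* (0.917), *Stx3* (0.907), *Steap4* (0.896), *Hp* (0.886), *Hpx* (0.855), *Slc13a5* (0.854), *Lrg1* (0.845), *Orm3* (0.842), *Socs3* (0.842), *Il1r1* (0.828), *Itih4* (0.823), *Crp* (0.818), *Cp* (0.808), *Saa4* (0.800), *Itih3* (0.795), *Fgg* (0.726) and *Fgb* (0.716). Most of these are acute phase genes, and *Lrg1*, the metallothioneins, *Prtn3*, *Slc13a5* and *Stx3* are not on that list. Chow 1 was far below for *Fabp1* (0.749) and *Car3* (0.735).

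Chow 2 was far above for *Hba-a2* (0.967), *Hbb-bs* (0.945), *Bhlhe40* (0.883) and *Tff3* (0.859). Chow 3 was far above for *Cyp4a14* (0.936), a fatty acid hydroxylase.

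Of 50 gene lists and sums of lists, 5 had a liver far from the others in their share of summed TPM. Chow 1 was far above for acute phase (0.922) and neutrophils (0.899), and far below for fatty acid oxidation and ketogenesis (0.858) and adipocytes (0.748). Chow 2 was far above for red blood cells (0.971). The neutrophil markers held at most 0.00177% of any liver, and the adipocyte share was nearly all *Car3*, with *Adipoq*, *Lep* and *Retn* at 0 in every liver. *Fabp1*, flagged on its own above, held a mean of 1.02% of the summed TPM, against 1.64% for the whole fatty acid oxidation list. Of that list, 7 of 27 genes had a liver far below, against 2.10% of all genes. The list was not taken without *Fabp1*.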

How the results depend on the processing

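Of 86 alternative values over 9 results, 56 kept the reported value within its limit and 30 moved. Taken as shares of estimated counts, which are not corrected for transcript length, the 20 most abundant genes held 27.3%, the secreted genes 36.8% and the metabolic genes 14.98%, and without *Car3* the markers of other cells held 0.142%. Genes past 2-fold numbered 613 at a mean of at least 10 TPM, 7838 with no filter, 1603 in TMM-scaled CPM, 1505 as a ratio of TPM + 1, and 1681 to 2348 when each liver was left out in turn, the lowest being without Chow 1. The median CV was 14.99%, 26.4% and 14.3% under the first 3 of these settings and 15.5% to 18.9% with a liver left out. Of the 20 most variable genes, 8 were shared at a mean of at least 10 TPM, 0 with no filter, 11 by the SD of log2(TPM + 1), 13 by that of log2(TPM + 0.1), 11 at a mean count of at least 20, and 9 to 15 with a liver left out. Of the 20 least variable, 0 were shared after TMM scaling, in TMM-scaled CPM and with the counting variance taken off (counts as deposited or halved), and 4 to 11 with a liver left out. The count filter, the settings without the acute phase list and that without *Car3* were chosen after seeing the data. The cause of these moves was not tested. No paired analysis was possible because 1 group was described and no test was made. Depth limits the genes of low count, 169 of the 10440 having a mean count under 20, of which 160 were past 2-fold.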
